A study of Drosophila melanogaster with 4 samples.

Results

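The broad autosomal domains of H3K18ac described here were 385 regions of the Drosophila melanogaster genome, each at least 10 kb long. They were taken from the list of enriched regions (clusters) that the authors had combined over the replicates of a ChIP-seq experiment. A cluster was kept when it lay on chromosome arm 2L, 3L or 3R, measured 10000 bp or more and shared at least 1 bp with a cluster of ChIP replicate 1 and with a cluster of ChIP replicate 2. These 385 regions were part of 4605 combined clusters on the 3 arms and of 7536 in the whole list. Of the 4605 clusters, 1384 (30.1%) overlapped both replicates, and of the 387 clusters of 10 kb or more, 385 did. The other two, on 3L from 77956 to 88562 and on 3R from 6480086 to 6490770, had clusters in replicate 1 and none in replicate 2. Members were chosen by measured values, the length of the combined cluster and its overlap with both replicate lists, so these are given as descriptions and carry no test.

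All samples came from whole embryos of the wild-type strain Oregon-R, labelled as 14 to 16 h old, with no treatment or altered genotype in any group. There were 2 ChIP libraries, made with an antibody lot labelled as new, and 2 input libraries of unselected genomic DNA, each named in the labels as input for the cluster list of the equally numbered ChIP. In material pooled from whole embryos, a mark present in many cells and a mark strong in a few cells cannot be told apart. The files hold positions and scores of clusters and no reads, so the depth behind each library is unknown and a base outside every cluster is only uncalled. Replicate 1 held 2707 clusters on the 3 arms and replicate 2 held 3029, covering 11.1 and 10.3 Mb.

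H3K18ac is an acetyl group on lysine 18 of histone H3. It is placed by acetyltransferases of the CBP and p300 family, of which the fly has Nejire, and it is found at promoters and enhancers that are in use. Acetylation weakens the hold of the histone tail on DNA and offers a docking site to proteins with bromodomains. Single promoters and enhancers usually give narrow peaks. In mammals, long acetylated stretches often lie over groups of enhancers near genes that specify a cell type. In late fly embryos, genes with large regulatory regions are at work in the differentiating nervous system, muscle and epidermis. Genes inside the domains were not analysed here, because the gene table at hand belongs to another genome release.

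Broad domains were present in similar numbers per Mb on the 3 arms. There were 117 on 2L, 131 on 3L and 137 on 3R, which is 5.08, 5.34 and 4.91 domains per Mb. Together they spanned 7.78 Mb, or 10.3% of the sequence of these arms, with 9.86% of 2L, 11.4% of 3L and 9.77% of 3R. They were 8.36% of the combined clusters on the arms and held 41.7% of their bases. In the lists of the single replicates, the 948 clusters of replicate 1 that met a broad domain were 35.0% of its clusters on these arms, and the domains held 60.0% of its bases. In replicate 2 these were 1175 clusters (38.8%) and 58.6% of bases. So a small number of combined regions held most of the bases called in each replicate.

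Most broad domains were only somewhat longer than the minimum. The median length was 16089 bp, and the middle 50% lay between 12245 and 23257 bp. Domains of 10 to 15 kb numbered 168, those of 15 to 20 kb 88, those of 20 to 30 kb 72 and those of 30 kb or more 57. The last class held 2.50 Mb, more than any other class. Median lengths were 15509 bp on 2L, 16685 bp on 3L and 16111 bp on 3R, close together beside the range of 10005 to 118591 bp over all members. The minimum cuts through a continuous range of lengths. Just inside it lay domains of 10005 bp (2L from 462632 to 472636), 10009 bp (3L from 9840228 to 9850236) and 10015 bp (2L from 8730794 to 8740808). Just outside lay clusters of 9955 bp (3R from 26388202 to 26398156), 9917 bp (3R from 24680248 to 24690164) and 9903 bp (3L from 5829018 to 5838920). In the same order, the 3 inside had covers in replicates 1 and 2 of 89.4% and 72.7%, 40.6% and 17.5%, and 95.5% and 55.0%. The 3 outside had 95.2% and 100%, 70.0% and 85.0%, and 18.1% and 43.7%. Well covered and thinly covered regions thus lay on both sides of the minimum.

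**Figure D1:**
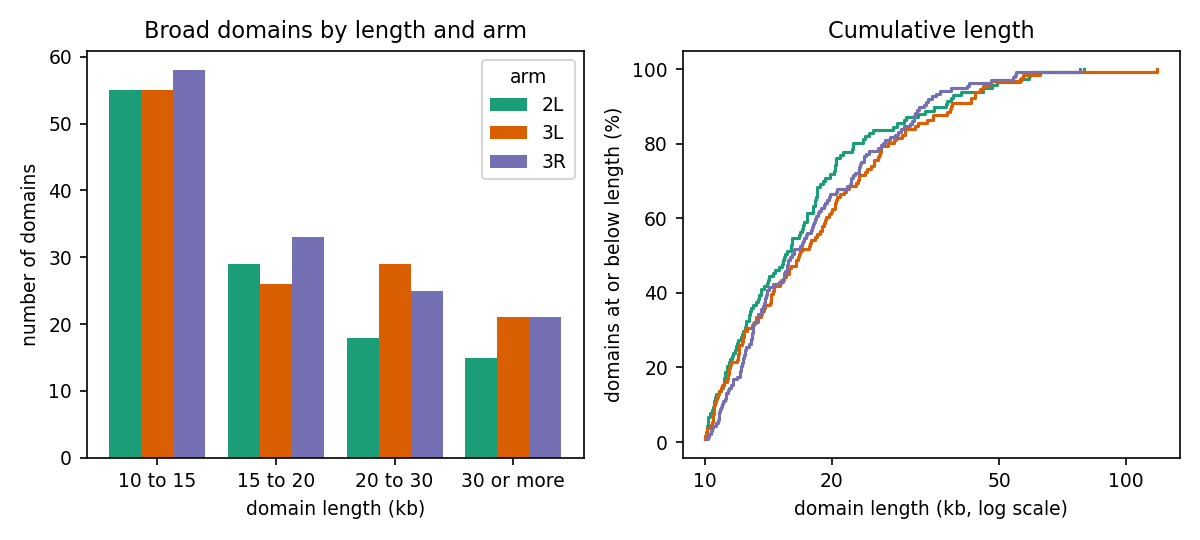
Left, the number of broad domains (vertical axis) in 4 length classes in kb, with 1 bar per chromosome arm. Right, the share of domains at or below each length, on a log axis in kb, with 1 line per arm. The 10 to 15 kb class was the most populated on each arm, and the line of 3L reaches the longest domain, at 118591 bp.

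Clusters of the single replicates filled most of a typical broad domain, more so in replicate 1. In the median domain 87.5% of bases were covered in replicate 1 and 78.0% in replicate 2, a mean of 82.8% ± 6.76 (SD, n = 2). Replicate 1 covered the larger part in 279 domains and replicate 2 in 106. Cover differed widely among members. It ranged from 17.1% to 100% in replicate 1 and from 17.5% to 98.9% in replicate 2, and across the 385 domains the covered shares of both lists had a Spearman's rho of 0.56. At least 80% was covered in both replicates in 153 domains (39.7%), against 23.4% of the 1384 clusters of any length seen in both replicates. At least 50% was covered in both in 334 domains (86.8%), against 68.4% of those clusters. Both replicates also went into the combined list, so this cover is no independent check of the domains. The lists were not tested against each other, since with 2 replicates the smallest two-sided p of an exact paired permutation test is 0.5.

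Cover rose with length in both replicates. The median was 81.6% in replicate 1 and 74.2% in replicate 2 for domains of 10 to 15 kb, and 86.4% and 75.4% for those of 15 to 20 kb. Domains of 20 to 30 kb had medians of 89.7% and 78.9%. Those of 30 kb or more had medians of 95.4% and 86.0%, and none of the 57 fell under 74.6% in replicate 1 or 61.2% in replicate 2. The longest domains were thus also the most completely filled. Clusters of 4 to 10 kb seen in both replicates, 596 on the same arms, had medians of 67.2% and 61.8%. The 403 clusters under 4 kb had 73.5% and 75.8%, the second above the median of replicate 2 for domains of 10 to 15 kb, so cover did not rise steadily with length below 10 kb.

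**Figure D2:**
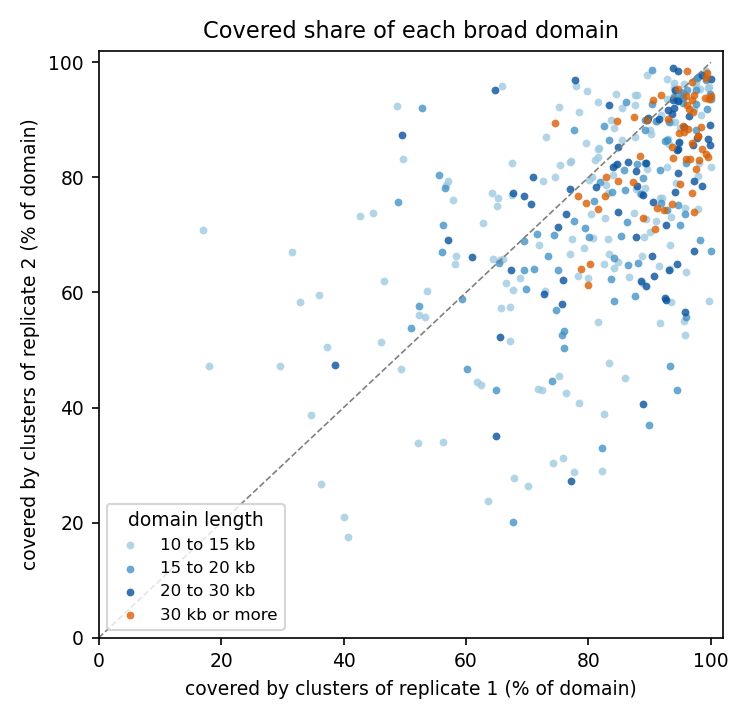
Each point is 1 of the 385 broad domains, placed by the percent of its length covered by clusters of replicate 1 (horizontal) and of replicate 2 (vertical) and coloured by length class. The dashed line marks equal cover. Most points lie below the line (279 of 385), and the points of 30 kb or more gather at the upper right.

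Some domains were only thinly covered. Cover was under 50% in 21 domains in replicate 1 and in 38 in replicate 2, and 8 of these were under it in both. Of the 51 domains under 50% in at least 1 replicate, 37 were 10 to 15 kb long, 9 were 15 to 20 kb and 5 were 20 to 30 kb. In replicate 1 the lowest was 3L from 12479506 to 12489880, covered to 17.1% by 1 cluster, while 3 clusters of replicate 2 covered 70.9% of it. The next was 3L from 5817090 to 5827990, with 17.95% and 47.2%. It was followed by 3R from 1125130 to 1135540 with 29.6% and 47.3%. Next came the domain at 21346206 to 21358490 on 3R (31.6% and 67.0%) and the domain at 17533098 to 17543194 on 2L (32.9% and 58.3%). In these 5 domains replicate 2 covered the larger part, which their choice by low cover in replicate 1 favours. The lowest in replicate 2 was the 10009 bp domain just inside the length minimum, with 17.5%. It was followed by 2L from 8576816 to 8592904, with 67.7% in replicate 1 and 20.1% in replicate 2. Then came the domain at 10380332 to 10391640 on 3L (40.0% and 21.0%). On 2L, domains at 14690992 to 14703288 (63.6% and 23.7%) and at 18363842 to 18377640 (70.2% and 26.4%) completed the 5. In all 5 replicate 1 covered more, which their choice by low cover in replicate 2 favours. Each of these 10 domains ranked in the lower part of the members by combined score, between rank 352 and rank 385 of 385.

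The replicates resolved the domains into different numbers of pieces, a piece being a replicate cluster with at least 1 bp in the domain. Replicate 1 had a mean of 2.47 pieces per domain and replicate 2 had 3.05, a mean of 2.76 ± 0.411 (SD, n = 2). The medians were 2 and 3 pieces and the maxima 10 and 17. Replicate 2 had more pieces in 182 domains (47.3%), replicate 1 had more in 90 (23.4%) and 113 had equal numbers. Among all 1384 clusters seen in both replicates, broad domains included, 21.8% had more pieces in replicate 2 and 15.1% more in replicate 1. The shorter classes showed no such excess. At 4 to 10 kb, 112 clusters had more pieces in replicate 2 and 110 more in replicate 1. Under 4 kb these were 8 and 9. Longer regions have room for more pieces, and the excess of replicate 2 was largest in the longest class. Domains of 10 to 15 kb had means of 1.94 and 2.14 pieces, and those of 30 kb or more had 3.28 and 5.42. Per 10 kb the number of pieces fell with length, from 1.62 in replicate 1 and 1.79 in replicate 2 at 10 to 15 kb to 0.748 and 1.24 at 30 kb or more.

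**Figure D3:**
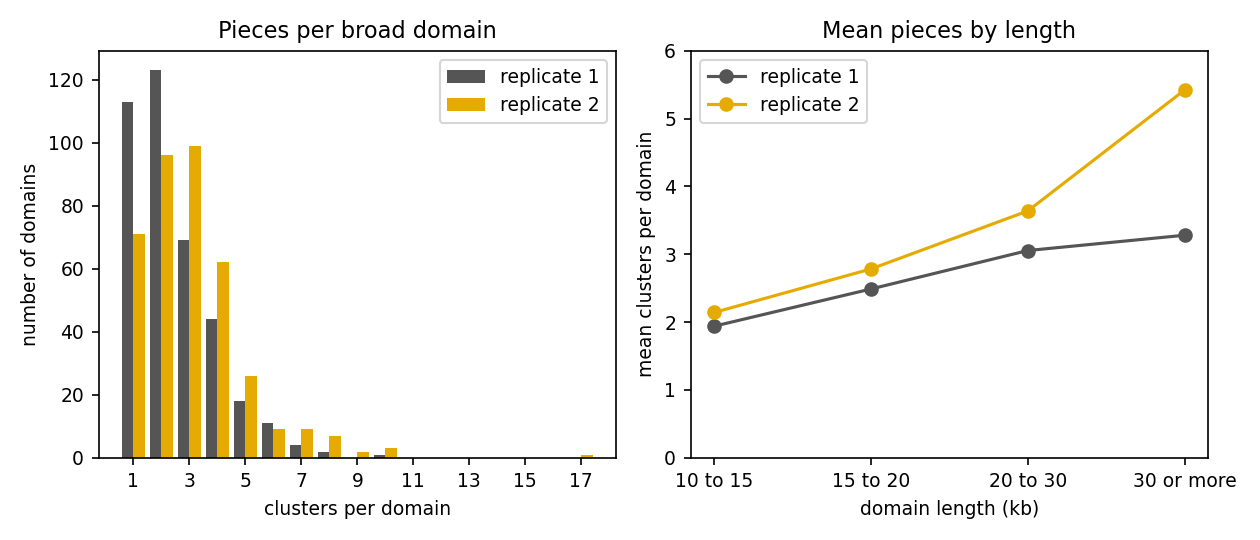
Left, the number of broad domains (vertical axis) by the number of clusters that overlapped a domain, for replicate 1 (grey) and replicate 2 (yellow). Right, the mean number of clusters per domain in 4 length classes in kb, with 1 point per replicate. Replicate 1 had 113 domains in 1 piece and replicate 2 had 71, and the means lie furthest apart at 30 kb or more (3.28 and 5.42).

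The domains with the largest difference in pieces were longer than 30 kb and more divided in replicate 2. The longest domain, on 3L from 11325028 to 11443618, had 5 pieces in replicate 1 and 17 in replicate 2. Its longest single piece was 68459 bp in replicate 1, but in replicate 2 it was only 21699 bp. Its neighbour on 3L from 11286288 to 11323872 was 1 cluster of 37006 bp in replicate 1 and 10 clusters of at most 5109 bp in replicate 2. The domain on 2L from 12456802 to 12515794 had 3 and 10 pieces, that on 2L from 14468134 to 14526856 had 2 and 9, and that on 3R from 5694864 to 5772468 had 1 and 7. A shorter domain on 3L from 10830274 to 10861766, with 2 and 8 pieces, had the same difference as the last of these. Cover changed less than the number of pieces. In the 5 listed first it lay between 95.9% and 98.5% in replicate 1 and between 77.2% and 94.1% in replicate 2.

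The other long domains were resolved in different ways. On 3L from 769634 to 826678 (57045 bp) there was 1 piece in replicate 1, a cluster of 62861 bp that ran past the edge of the domain, and 2 pieces in replicate 2. On 3R from 12030842 to 12085488 (54647 bp) a cluster of 54776 bp in replicate 1 covered the whole domain, and 5 clusters of replicate 2 covered 94.2%. On 3L from 15672696 to 15729108 (56413 bp) both replicates had 6 pieces, none longer than 13464 bp. The domain on 2L from 14410150 to 14466240 (56091 bp) had 4 and 9 pieces. The domain on 2L from 1400542 to 1480194 had its longest piece at 55866 bp in replicate 1 and 32014 bp in replicate 2, and that on 3L from 19139188 to 19201652 at 49417 and 36896 bp. A region of more than 50 kb was therefore 1 stretch in some cases and a row of shorter clusters in others. 

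A domain could be broad in the combined list without being broad in either replicate. A single cluster of 10 kb or more by its full length overlapped 196 domains (50.9%) in replicate 1, 129 (33.5%) in replicate 2 and 108 in both. The part inside the domain could be shorter than 10 kb. On 2L from 18305334 to 18315492, for example, the cluster of 39501 bp in replicate 1 lay mostly beyond the domain. In 168 domains neither replicate had one, and 110 of these were 10 to 15 kb long. Of the 57 domains of 30 kb or more, 54 had such a cluster in replicate 1 and 43 in replicate 2. Conversely, 209 of the 210 clusters of 10 kb or more in replicate 1 on these arms overlapped a broad domain, as did 148 of 149 in replicate 2. Of these clusters, 61 in replicate 1 and 6 in replicate 2 reached beyond a domain.

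The simplest domains were 1 cluster in both replicates. There were 42 of them (10.9%), against 53.1% of all 1384 clusters seen in both replicates, most of which were short. Their lengths ran from 10037 to 38359 bp with a median of 12814 bp. In 10 of them, each replicate cluster and the domain covered at least 95% of one another. The longest of these was 3R from 834126 to 872484 (38359 bp), where the clusters measured 38110 and 37662 bp. It was followed by 3L from 4335580 to 4361718 with clusters of 25775 and 25568 bp. On 3R there were 6 more, which spanned 877664 to 894652, 11491198 to 11506570, 2217706 to 2231886, 4633006 to 4647052, 2232278 to 2243094, and 2634980 to 2645306. The other two were 2L from 16266402 to 16280414 and 3L from 16030718 to 16044384. Domains on 3R were also whole more often in general. In replicate 1, 40.1% of the domains of 3R were 1 cluster, against 22.2% on 2L and 24.4% on 3L, and in replicate 2 these shares were 21.9%, 16.2% and 16.8%. The median cover in replicate 2 was 83.2% on 3R, 74.7% on 2L and 75.6% on 3L. Differences between arms were not tested.

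Most bases of the broad domains were called in both replicates. Of the 7.78 Mb, 70.3% lay in clusters of both, 15.1% in replicate 1 alone, 7.13% in replicate 2 alone and 7.50% in neither. In domains of 30 kb or more 81.0% of bases lay in both and 3.15% in neither, and at 10 to 15 kb these shares were 60.5% and 11.8%. In clusters of 4 to 10 kb seen in both replicates they were 46.1% and 19.6%. Those under 4 kb had 54.5% and 13.8%, so the share in both did not fall steadily below 10 kb. The agreement of the lists, base by base, was therefore highest in the longest class.

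Most interruptions inside the domains were short. Replicate 1 left 564 gaps between its pieces, with a median of 623.5 bp, and replicate 2 left 788, with a median of 643.5 bp. Under 1 kb were 67.9% of the gaps in replicate 1 and 62.6% in replicate 2, and the longest measured 6197 and 7405 bp. Many of these gaps were filled in the other list. Clusters of replicate 1 filled 536 of the 788 gaps of replicate 2 completely (68.0%), and clusters of replicate 2 filled 251 of the 564 gaps of replicate 1 (44.5%). Stretches open in both replicates away from the domain edges numbered 361, with a median of 421 bp and a maximum of 4347 bp. Some of these stretches can lie beyond the outermost cluster of a replicate, so they are not all gaps between pieces in both. Of the gaps between pieces, 313 in replicate 1 and 252 in replicate 2 held bases that were also open in the other list.

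At their outer edges the domains reached further than the replicate clusters. The outermost cluster started or ended a median of 382.5 bp inside the domain in replicate 1 and 615.5 bp inside in replicate 2, over 770 edges. Replicate 1 ran past the edge at 160 edges (20.8%) and replicate 2 at 31 (4.03%). In the first 500 bp inside an edge 41.4% of bases were covered in replicate 1 and 26.2% in replicate 2. Between 4.5 and 5 kb inside, these shares were 87.4% and 81.1%. Cover thus climbed over the outer few kb and then levelled off.

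The sequence around broad domains was also marked. In the 10 kb on each side, 27.3% of bases were covered in replicate 1, 21.8% in replicate 2 and 45.9% in the combined list, neighbouring broad domains included. On the 3 arms outside broad domains these shares were 6.54%, 6.30% and 16.1%. These arm shares leave broad domains out while flanks can include them, so the comparison is not like for like. With broad domains counted, the 3 lists covered 11.1, 10.3 and 18.7 Mb of the 75460154 bp of the arms. Flanks of the 4 to 10 kb clusters had 21.0%, 18.2% and 40.2%, and those of clusters under 4 kb had 14.6%, 13.2% and 30.3%. The flanks were therefore more covered the longer the cluster was, in all 3 lists. Directly next to the edge, within 500 bp, cover was 10.6% in replicate 1 and 3.63% in replicate 2, the latter below the 6.30% of the arms outside broad domains.

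**Figure D4:**
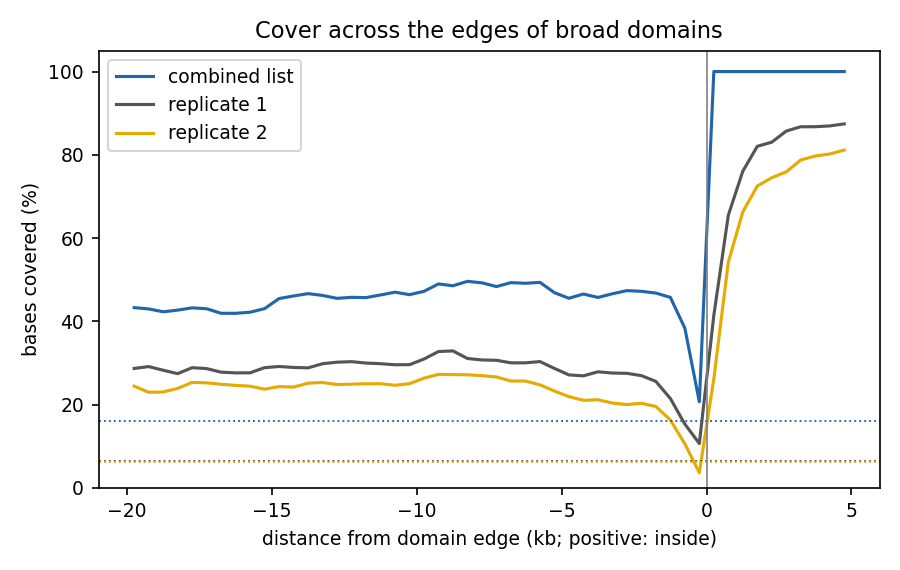
Percent of bases covered (vertical axis) in bins of 500 bp by distance from the nearer edge of the broad domains in kb, negative outside and positive inside, averaged over both edges of 385 domains. Solid lines are the combined list and the 2 replicates, and dotted lines the level of each list on the 3 arms outside broad domains, where the replicates nearly coincide (6.54% and 6.30%). Outside the edge the solid lines include neighbouring broad domains, which the dotted lines leave out. Cover is lowest in the first 500 bp outside the edge, where replicate 2 (3.63%) falls below its dotted line, and from there out to 20 kb it lies above the dotted lines.

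Another combined cluster often began right beside a broad domain. In 250 domains (64.9%) the nearest combined cluster of any length was within 1 kb, against 56.6% of all clusters seen in both replicates, and the median distance was 403 bp. Clusters of 4 to 10 kb seen in both replicates had 60.4% and 565 bp, and those under 4 kb had 43.2% and 1397 bp. Breaks of 1 kb or less next to a domain numbered 297, and 33 of them separated 2 broad domains. A single cluster of replicate 1 spanned 32 of the 297 breaks and a cluster of replicate 2 spanned 1. At 79 places the break was 100 bp or less, with a median of 43 bp, and replicate 1 spanned 15 of these. How a combined cluster was delimited is not known from the labels or headers, so the number of domains depends in part on such narrow breaks.

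Broad domains stood high in the score lists. The score is the authors' own value per cluster and has no stated unit, so only its order within 1 list is used. By combined score the median domain stood at percentile 92.6 of the whole combined list, and the lowest at 51.4. In all, 240 domains (62.3%) were in the top 10% of that list, against 8.82% of all combined clusters on the 3 arms. By its best piece the median domain stood at percentile 86.2 in replicate 1 and 86.9 in replicate 2. All 3 lists placed 110 domains in their top 10%, while 19 domains in replicate 1 and 26 in replicate 2 had a best piece below the median of the list. Clusters of 4 to 10 kb seen in both replicates had median percentiles of 81.0 in the combined list, 60.0 in replicate 1 and 58.7 in replicate 2. Those under 4 kb had 67.3, 28.6 and 32.4. A domain with several pieces has several chances at a high best score, and scores, lengths and overlaps came from the same libraries.

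No broad domain was at the very top of the combined list. The highest, with a score of 1.12, ranked 21, and 16 of the 20 clusters above it were under 2 kb and overlapped neither replicate. That domain was the 13667 bp region on 3L from 16030718 to 16044384, whose clusters ranked 9 in replicate 1 and 14 in replicate 2. Second was 3L from 605130 to 650126 (44997 bp), whose best pieces ranked 12 and 9. Next was the 54647 bp domain on 3R from 12030842, with ranks 8 and 13. These 3 stood near the top of each list. They were followed by the domains starting at 27426868 (10707 bp, ranks 16 and 19) and 877664 (16989 bp, ranks 38 and 53) on 3R. The highest of 2L was the domain from 16704208 to 16722668 (18461 bp, ranks 30 and 56). The last of the 10 were on 3R, from 17404548 to 17435498 (ranks 19 and 31), at 14810148 to 14846270 (46 and 61), at 4633006 to 4647052 (21 and 163) and at 11491198 to 11506570 (82 and 60). Of the 10, 7 lay on 3R, and 6 were 1 cluster in both replicates.

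Among broad domains, a higher score went with fuller cover and fewer pieces in replicate 1. Spearman's rho of combined score with cover was 0.77 in replicate 1 and 0.75 in replicate 2 over 385 domains, and with length it was 0.39. With the domains split into 4 classes of nearly equal size by combined score, the lowest class (97 domains) had a median cover of 65.7% in replicate 1 and 57.6% in replicate 2. In the highest class (96 domains) it was 95.4% and 91.9%. The number of domains in 1 piece went from 5 to 58 in replicate 1 and from 14 to 32 in replicate 2. Mean pieces fell from 3.20 to 1.66 in replicate 1 but were 2.93 and 2.74 in replicate 2. These values share their reads and describe the lists, so no p is given.

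Broad domains often had another close by. The median distance from a domain to the nearest other broad domain was 18997 bp, and 259 of 385 (67.3%) had one within 50 kb. The shares within 50 kb were 70.1% on 2L, 68.7% on 3L and 63.5% on 3R. For all 385 the 95% exact Clopper-Pearson interval was 62.3 to 71.9, counting error only. It takes domains as independent, which they are not, since neighbours share a distance. The interval therefore serves only as a yardstick for alternative settings. Distances between successive domains were uneven, with a median of 71595 bp and a mean of 165582 bp. The more numerous clusters of 4 to 10 kb had a nearest neighbour of their class at a median of 21107 bp, and 70.3% had one within 50 kb. Clusters under 4 kb, of which there were 403, about as many as broad domains, had medians of 49281 bp and 50.9%. The median distance between successive members, divided by the mean, was 0.432 for broad domains, 0.512 for 4 to 10 kb and 0.571 under 4 kb. Spacing was therefore most uneven for broad domains, a difference that was not tested.

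**Figure D5:**
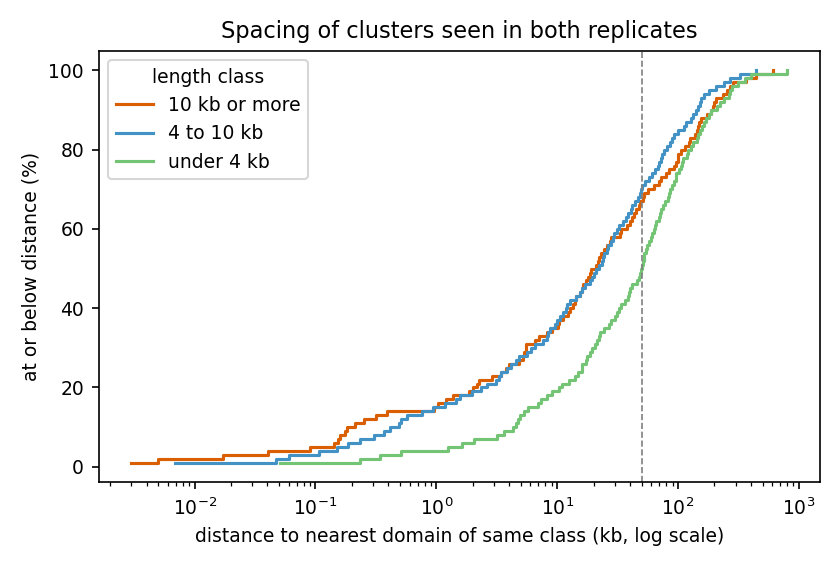
Share of clusters (vertical axis) whose nearest neighbour of the same length class lies at or below a given distance, on a log axis in kb, for the 385 broad domains and for clusters of 4 to 10 kb and under 4 kb seen in both replicates. The dashed line marks 50 kb. Broad domains reach 67.3% there, close to the 70.3% of the 4 to 10 kb class, and clusters under 4 kb reach 50.9%.

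Domains linked by 50 kb or less formed 89 chains of at least 2, and 126 domains stood alone. Most chains were pairs (49) or triplets (20), and 11 had 5 domains or more and held 65 domains in all. The chain with most members was on 2L from 14367546 to 14703288, where 9 domains filled 81.6% of 335743 bp. Replicate 1 covered 79.1% of that span and replicate 2 63.1%. Next was 3L from 448702 to 826678, with 7 domains in 377977 bp, covered to 73.4% and 70.3%. It was followed by 3L from 11225058 to 11546632, with 6 domains in 321575 bp, among them the longest of all, covered to 78.0% and 62.4%. Each of these 3 chains was a region of more than 300 kb in which both replicates called most of the sequence. A further 3 chains also had 6 domains each but were shorter and less covered. On 3L from 13062790 (198315 bp) replicates 1 and 2 covered 55.3% and 40.9%. On 3R the chain from 10495270 (151913 bp) had 65.5% and 55.6%, and that from 4563222 (186069 bp) had 46.3% and 40.8%.

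Along the arms the domains were spread over nearly all windows, but unevenly. Of the 74 full windows of 1 Mb, 4 held no domain. The median window held 5 domains, and domains filled 8.94% of it at the median. The 8 windows with most domain bases held 25.9% of all domain bases in these windows. The top 18 windows held 47.5% and the bottom 18 held 6.09%. Domains filled 35.1% of the first Mb of 3L and 33.7% of 2L from 14000001 to 15000000, with 12 domains in each. It was followed by 3L from 11000001 to 12000000 with 23.7%. Within domains, replicate 1 covered 32.7%, 29.7% and 22.7% of these windows and replicate 2 covered 31.4%, 24.7% and 18.8%, so the order was the same in both. On 2L the windows at 15000001 to 16000000, directly beside the second of these, and at 22000001 to 23000000 held no domain. The same was true of 1 window on 3L, which begins at 23000001, and 1 on 3R, which begins at 8000001. The short last windows of 2L and 3L held none either.

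Long stretches without a broad domain lay between successive domains, the ends of the arms being left aside. The longest was 3R from 7684167 to 9537693 (1853527 bp), which held 73 combined clusters of at most 9391 bp and had a cover of 5.14% in replicate 1 and 5.46% in replicate 2. The second, on 2L from 14703289 to 16266401 (1563113 bp), began at the end of the 9-domain chain. It held 37 combined clusters of at most 6997 bp and was covered to 1.69% and 1.53%. The next was 2L from 12540673 to 13875529 (1334857 bp), with 72 clusters of at most 8985 bp and a cover of 5.44% and 4.98%. The chain with most domains thus ended where a long stretch without any began. Stretches such as that on 3R were marked by shorter clusters rather than unmarked.

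With each arm cut into 3 equal parts, domains were sparsest in the part near the centromere on 2L and 3L. From the telomere inward the parts of 2L were filled to 11.9%, 10.2% and 7.54%, and those of 3L to 13.3%, 13.3% and 7.43%. On 3R the order was different, with 7.51% at the telomere, 12.1% in the middle and 9.67% next to the centromere. The last domain lay 1761230 bp from the centromere end of the sequence on 2L and 2103139 bp from it on 3L. On 3R the first domain lay 104495 bp from that end. Mappability was not measured here, and its part in these positions was not tested.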

How the data were processed

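Embryos were crosslinked with 1.8% formaldehyde before immunoprecipitation, per the labels' protocols. The tools named in the submitters' processing notes include Bowtie 0.12.7. The authors deposited lists of regions of significant enrichment with a score per region, 1 list per ChIP replicate and 1 combined list. Neither labels nor headers name the region caller, its threshold, the scale of the score or the way replicates were combined. Coordinates and arm lengths are those of FlyBase r5, per the file headers. No coordinates were converted between releases.

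Lists were compared in Python 3.11.15 with numpy 2.4.6, pandas 2.3.3 and scipy 1.17.1, and drawn with matplotlib 3.10.9. For each domain the overlapping clusters of each replicate, the percent of bases they cover, their best score percentile, the edge distances and the distance to the nearest domain were computed. Percentiles are ranks within 1 list, 100 being the highest score. The functions gave back the planted values for all 300 simulated clusters. Values over replicates are mean ± SD of 2. Nothing in the labels says that the replicates came from separate collections, so their spread may be technical. The domains, classes and alternatives were chosen with earlier results of these data known. Named regions followed a rule: the 10 longest, the 10 highest scores, those at the length minimum, those most unlike between replicates, those alike in both, and the extremes of grouping.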

Additional observations from a re-analysis of the deposited data

How the results depend on the processing

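Of 25 alternative values, 16 stayed within 1.5 times the count, 1 SD of the replicates or the exact interval, and 9 moved. No rule was set for a reversed value. With a minimum of 15 or 20 kb there were 217 or 129 domains in place of 385. At a minimum of 8 kb there were 517, and with combined clusters within 1 kb merged 497. Without replicate 1 or 2 as a requirement there were 385 or 387. With replicate clusters at or above the median score alone, the median cover was 72.2% in place of 82.8%. It lay between 78.0% and 87.5% with 1 replicate left out. With replicate clusters within 1 kb merged, mean pieces were 1.62 in place of 2.76, namely 1.47 in replicate 1 and 1.77 in replicate 2, and 147 domains in place of 42 were whole in both. With 1 replicate left out, mean pieces were 2.47 to 3.05. The share of domains with another nearby was 55.6% at 25 kb, 77.9% at 100 kb, 50.2% for domains of 15 kb or more and 72.8% with combined clusters within 1 kb merged, and 67.3% to 67.4% with 1 replicate left out. Among clusters of the 3 arms in both replicates, the median score percentile was 78.8 in place of 92.6, since that smaller set holds higher scores. It was 92.6 with either replicate left out. Leaving out a replicate for spacing and score, and merging for spacing, were chosen after seeing the data. With 2 replicates each lies within 1 SD of their mean, so leaving 1 out could not move cover or pieces. For number, spacing and score it only dropped an overlap requirement on the same combined list, so these could hardly move. A score floor at the median of the list kept all 385, as the lowest percentile was 51.4. These alternatives say nothing on stability. Apart from the percentile, the cause of a moved value was not tested. No paired analysis was possible because ChIP and input share numbers but no list holds values for an input. Unknown read depth limits every statement on bases that were not called.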

Other observations

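With 3L cut into 3 equal parts, the middle part held 51 broad domains whose cover differed more between the replicates than elsewhere. Their median cover was 88.5% in replicate 1 and 66.3% in replicate 2, whereas the 51 domains of the part next to the telomere had 87.9% and 79.2%, and the 29 next to the centromere had 86.3% and 79.2%. This part holds the longest domain, with 5 and 17 pieces, and a chain of 6 domains on 3L from 13062790 to 13261104, covered to 55.3% and 40.9%. On 3R the parts next to the centromere and the telomere were the most evenly covered, with medians of 93.2% and 87.8% next to the centromere and 87.5% and 87.0% next to the telomere. These differences were seen in the values and were not tested.

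Clusters that overlapped 2 or more broad domains numbered 4 in replicate 1 and 1 in replicate 2. Domains in the lowest of 4 classes by combined score had another broad domain within 50 kb in 70 of 97 cases, and those in the highest class in 65 of 96.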
